A study of Mus musculus with 13 samples.

Results

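The 44 genes described here drive or restrain cell division. They comprise 15 genes of DNA replication and nucleotide supply, 19 genes of mitosis, 7 cyclins and kinases of the G1 phase and 3 inhibitors of cyclin-dependent kinases (CDKs). They were listed by name, and every non-control probe annotated to a listed gene was collected, with Cdk1 also accepted under its older symbol. All 44 genes had a probe, 60 probes in total. The brightest probe stood for its gene, and all 44 genes passed the filter on dim probes, out of 31734 genes tested on the array.

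RNA of mouse retina was hybridised to 13 Agilent arrays, of which 6 carried tip samples, 4 carried stalk samples and 3 carried nonvascular retina, labelled as the control. Tip cells sit at the front of a sprouting vessel and stalk cells form the tube behind it, and the study searched for genes that distinguish retinal tip cells. Every array paired the sample, in Cy5, with Universal Mouse Reference RNA, a pool from mouse cell lines, in Cy3, and the dyes were never swapped. A level below is a log2 ratio of sample over this pool, so that 0 means equal to the pool and 1 unit is a doubling. Strain, age, genotype and the way the cells were isolated are not given in the sources used here, and no transgene or treatment is named. The labels do not tie samples to animals, so p-values measure only the spread between these samples, which may be technical.

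Among all spots, 84.9% to 95.3% per array were well above background in the sample channel, and the median signal after subtraction of the local background was 105 to 292 intensity units on tip arrays, 98.1 to 141 on stalk arrays and 166 to 282 on nonvascular arrays. Of the 44 genes, 42 were well above background on every array. The exceptions were Cdc45, measured above background on 10 of 13 arrays, and Mcm7, on 12 of 13. Separately, the spots of Mcm7 on stalk array 1 and of Ccnb2 on stalk array 3 were marked as outliers by the scanner software and left out. The stalk values of both genes therefore rest on 3 arrays. Stalk arrays were scanned before tip arrays and tip arrays before nonvascular arrays, apart from tip array 5, which came last. The effect of scan order therefore cannot be told apart from that of the group.

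A dividing cell passes from G1, where D-type cyclins with Cdk4 and E-type cyclins with Cdk2 release the E2F transcription factors from the retinoblastoma protein, into S phase, where the genome is copied, and then through G2 into mitosis. E2F factors switch on the replication genes early, and many mitotic genes come on later through the DREAM and MuvB complexes, which bind a promoter element called CHR, often with CCAAT boxes bound by NF-Y nearby. In a sprouting vessel, cells behind the leading tip are known to divide more than the tip cell itself, and in the young retina progenitor cells of the neural tissue divide as well.

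Replication and mitosis genes stood higher in tip samples and in stalk samples than in nonvascular retina, and no member was called different between tip and stalk. In tip minus nonvascular retina, 35 of 44 members were called higher and 1 lower by limma at an adjusted p under 0.05, where 11.2% of all genes tested were called higher and 16.8% lower. In stalk minus nonvascular retina, 34 members were called higher and 2 lower, where 11.3% of all genes were called higher and 18.6% lower. The median difference of the 44 members was 1.23 for tip and 1.22 for stalk on the log2 scale, against -0.011 and -0.0032 over all genes. These comparisons share the nonvascular arrays, and the members' values in each are given side by side. In bulk samples such as these, fewer dividing cells and less RNA per dividing cell cannot be told apart.

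**Figure D1:**
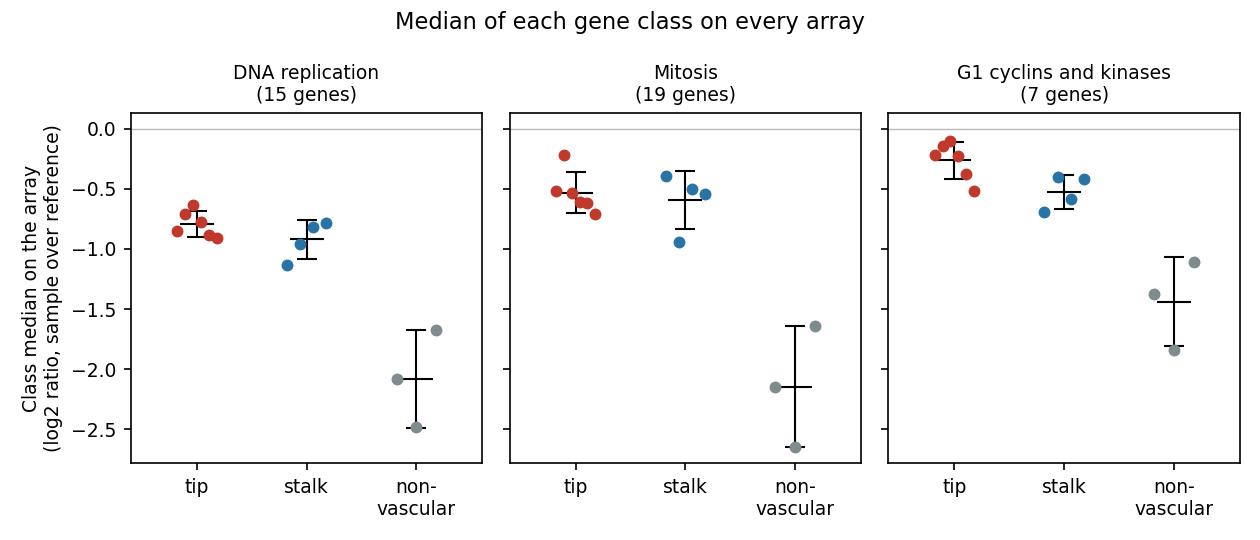
Median of each gene class on every array (y axis, log2 ratio of sample over reference RNA) for tip (6 arrays), stalk (4) and nonvascular retina (3). Points are arrays, and bars give the mean and SD over arrays. In replication, mitosis and G1 genes every tip and stalk array lies above every nonvascular array, while tip and stalk overlap.

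The median replication gene lay at -0.79 ± 0.11 on tip arrays, -0.92 ± 0.16 on stalk arrays and -2.08 ± 0.41 on nonvascular arrays (SD, n = 6, 4 and 3). The median mitosis gene lay at -0.53 ± 0.17 on tip arrays, -0.59 ± 0.24 on stalk arrays and -2.15 ± 0.50 on nonvascular arrays. All 3 groups were thus below the cell line pool in both classes, and the vascular groups were nearer to it. Nonvascular arrays differed among themselves more than the others did: replicates 1, 2 and 3 had medians of -2.08, -2.49 and -1.67 for replication and -2.15, -2.65 and -1.64 for mitosis, with replicate 3 highest in both.

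The replication genes were called higher in 13 of 15 cases in tip samples and in 12 of 15 in stalk samples, with median differences from nonvascular retina of 1.28 and 1.22 (2.43-fold and 2.32-fold). The minichromosome maintenance (MCM) genes encode the subunits of the replicative helicase, the ring that unwinds DNA ahead of the fork, and all 6 subunits on the list were called higher in both. Promoter sequences are shown for Mcm3 and Mcm6, the MCM genes that had the largest difference or the smallest p, because they carry the E2F motif, which was found in more of the replication than of the mitosis promoters. They come from RefSeq (GRCm38.p6), run 250 bases before to 50 bases after the start of the gene, 5′ to 3′ on the gene's strand, and capitals mark E2F motifs. Mcm3 is at chr1:20820263-20820562 and Mcm6 at chr1:128359656-128359955, both on the minus strand.
Mcm3: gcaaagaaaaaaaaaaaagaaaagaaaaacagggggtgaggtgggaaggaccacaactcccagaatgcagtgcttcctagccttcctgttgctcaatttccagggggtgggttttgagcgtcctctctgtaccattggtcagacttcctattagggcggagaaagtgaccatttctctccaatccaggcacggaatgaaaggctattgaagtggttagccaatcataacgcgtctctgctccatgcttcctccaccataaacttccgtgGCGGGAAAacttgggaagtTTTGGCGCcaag
Mcm6: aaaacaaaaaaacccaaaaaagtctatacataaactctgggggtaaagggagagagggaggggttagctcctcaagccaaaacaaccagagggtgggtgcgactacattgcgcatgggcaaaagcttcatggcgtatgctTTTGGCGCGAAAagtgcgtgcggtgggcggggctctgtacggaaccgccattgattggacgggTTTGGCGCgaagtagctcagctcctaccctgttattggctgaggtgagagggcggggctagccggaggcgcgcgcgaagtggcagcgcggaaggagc

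The motif was searched as TTTCCCGC, TTTCGCGC, TTTGCCGC or TTTGGCGC on either strand. Positions count from 1 at the start of the gene, and -1 is the base before it. Mcm3 has 2 matches, beginning at positions 20 and 39, and Mcm6 has 3, at -110, -106 and -47, of which the first 2 overlap on opposite strands and form the longer capital run. Of 14 promoters of 13 replication genes in the table, 6 hold the motif (42.9%), against 1 of 16 mitosis promoters (6.25%) and 744 of all 32851 promoters (2.26%). The 6 belong to Mcm3, Mcm5, Mcm6, Mcm7, Cdc6 and Cdt1, and the mitosis promoter is that of Cdk1. Mcm2, which differed more than Mcm6 in both comparisons, has no match, and neither has Tyms. A match is a description of these letters and not evidence of binding.

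Mcm3 showed the largest difference of the replication genes. Its levels were -0.89, -0.89, -0.69, -0.78 and -0.88 on tip arrays 1 to 5, with the spot of tip array 6 left out as an outlier marked by the scanner software. They were -0.65, -0.44, -0.55 and -0.78 on stalk arrays and -3.06, -3.47 and -2.28 on nonvascular arrays. Tip and stalk arrays overlapped, and every array of either group was above all nonvascular arrays. The difference was 2.11 ± 0.20 (SE; 95% interval 1.67 to 2.55, adjusted p = 7.47e-06) in tip and 2.33 ± 0.21 (1.87 to 2.79, adjusted p = 4.6e-06) in stalk samples, or 4.31-fold and 5.03-fold. A dimmer probe of Mcm3 differed far less, by 0.34 and 0.32.

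Mcm6 read -0.51 to -0.14 on tip arrays (median -0.34), -0.56 to -0.38 on stalk arrays and -2.24, -2.49 and -1.56 on nonvascular arrays, again with no overlap between a vascular group and nonvascular retina. It was 1.78 ± 0.15 higher in tip (adjusted p = 1.91e-06) and 1.64 ± 0.17 higher in stalk samples (adjusted p = 7.55e-06). Mcm2 read 0.17 to 0.53 on tip arrays (median 0.25), 0.44, 0.39, 0.13 and 0.38 on stalk arrays and -1.59, -2.27 and -0.99 on nonvascular arrays. It was 1.90 ± 0.20 higher in tip (adjusted p = 1.05e-05) and 1.95 ± 0.22 higher in stalk samples (adjusted p = 1.53e-05), 3.73-fold and 3.86-fold. Mcm5 read -0.91 to -0.51 on tip arrays (median -0.66), -0.67, -0.63, -0.57 and -0.48 on stalk arrays and -1.53, -1.75 and -1.37 on nonvascular arrays. For both genes the tip and stalk ranges overlapped and every vascular array was above all nonvascular ones. The differences of Mcm5, the smallest of the helicase genes, were 0.89 ± 0.09 in tip and 0.96 ± 0.10 in stalk samples, with an adjusted p of 1.11e-05 and 1.04e-05 and a within-group SD of 0.08 to 0.19. Mcm4 and Mcm7 lay between these, at 1.29 and 1.13 in tip and 1.22 and 1.32 in stalk samples. Mcm7 rests on 3 stalk arrays.

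The 4 members that make deoxynucleotides, Tyms, Tk1, Rrm1 and Rrm2, were called higher in both vascular groups. Tyms encodes thymidylate synthase, which makes thymidine monophosphate. Its levels ran from -0.02 to 0.31 on tip arrays with a median of 0.05, were 0.32, 0.32, 0.39 and 0.25 on stalk arrays, and were -1.60, -2.29 and -1.08 on nonvascular arrays. The difference from nonvascular retina was 1.74 ± 0.18 in tip (adjusted p = 1.11e-05) and 1.97 ± 0.20 in stalk samples (adjusted p = 6.75e-06). Tk1, the thymidine kinase of dividing cells, was 1.29 ± 0.15 and 1.11 ± 0.17 higher. The ribonucleotide reductase subunits Rrm1 and Rrm2, which turn ribonucleotides into deoxynucleotides, were 1.42 ± 0.17 and 1.28 ± 0.20 higher in tip samples and 1.25 ± 0.18 and 0.97 ± 0.21 higher in stalk samples. Outside the 44 genes, Dut and Dck, which also act in nucleotide supply, were not called, with differences of 0.33 (adjusted p = 0.0913) and 0.18 (adjusted p = 0.446) in tip and 0.13 (adjusted p = 0.583) and -0.04 (adjusted p = 0.9) in stalk samples.

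Among the factors that load the helicase onto origins or work with it, Cdt1, a loading factor, was 1.02 ± 0.13 higher in tip and 1.11 ± 0.14 higher in stalk samples, and geminin (Gmnn), which inhibits Cdt1, was 0.82 ± 0.14 and 1.31 ± 0.16 higher. Cdc6, which works with Cdt1, was called in tip samples (0.65 ± 0.14, adjusted p = 0.00309) and not in stalk samples (0.40 ± 0.15, interval 0.07 to 0.72, adjusted p = 0.0681), and its own tip minus stalk difference was 0.26 (interval -0.02 to 0.54, adjusted p = 0.314). The stalk difference of Cdc6 was called with only those 2 groups fitted (adjusted p = 0.0072) and without tip replicate 4 (0.0131). Cdc45, a helicase partner at the fork, was not called in either comparison, at 0.18 (interval 0.01 to 0.34, adjusted p = 0.106) and 0.22 (0.04 to 0.40, adjusted p = 0.0613), although the stalk difference was called with only those 2 groups fitted (adjusted p = 0.0408) and without tip replicate 6 (0.0263).

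Pcna, the sliding clamp that holds DNA polymerase on its template and a common marker of S phase, was, like Cdc45, not called in either comparison. Its levels ran from -2.36 to -1.63 on tip arrays with a median of -1.91, and were -2.67, -2.15, -2.35 and -2.07 on stalk arrays and -2.24, -2.63 and -2.16 on nonvascular arrays. The 3 groups overlapped. It differed from nonvascular retina by 0.41 ± 0.17 in tip samples (interval 0.04 to 0.78, adjusted p = 0.0937) and by 0.04 ± 0.18 in stalk samples (interval -0.36 to 0.43, adjusted p = 0.917). The tip difference was called with the red channel alone (0.48, adjusted p = 0.0231), with array brightness as a covariate (0.49, adjusted p = 0.0178) and without tip replicate 6 (0.50, adjusted p = 0.0276).

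**Figure D2:**
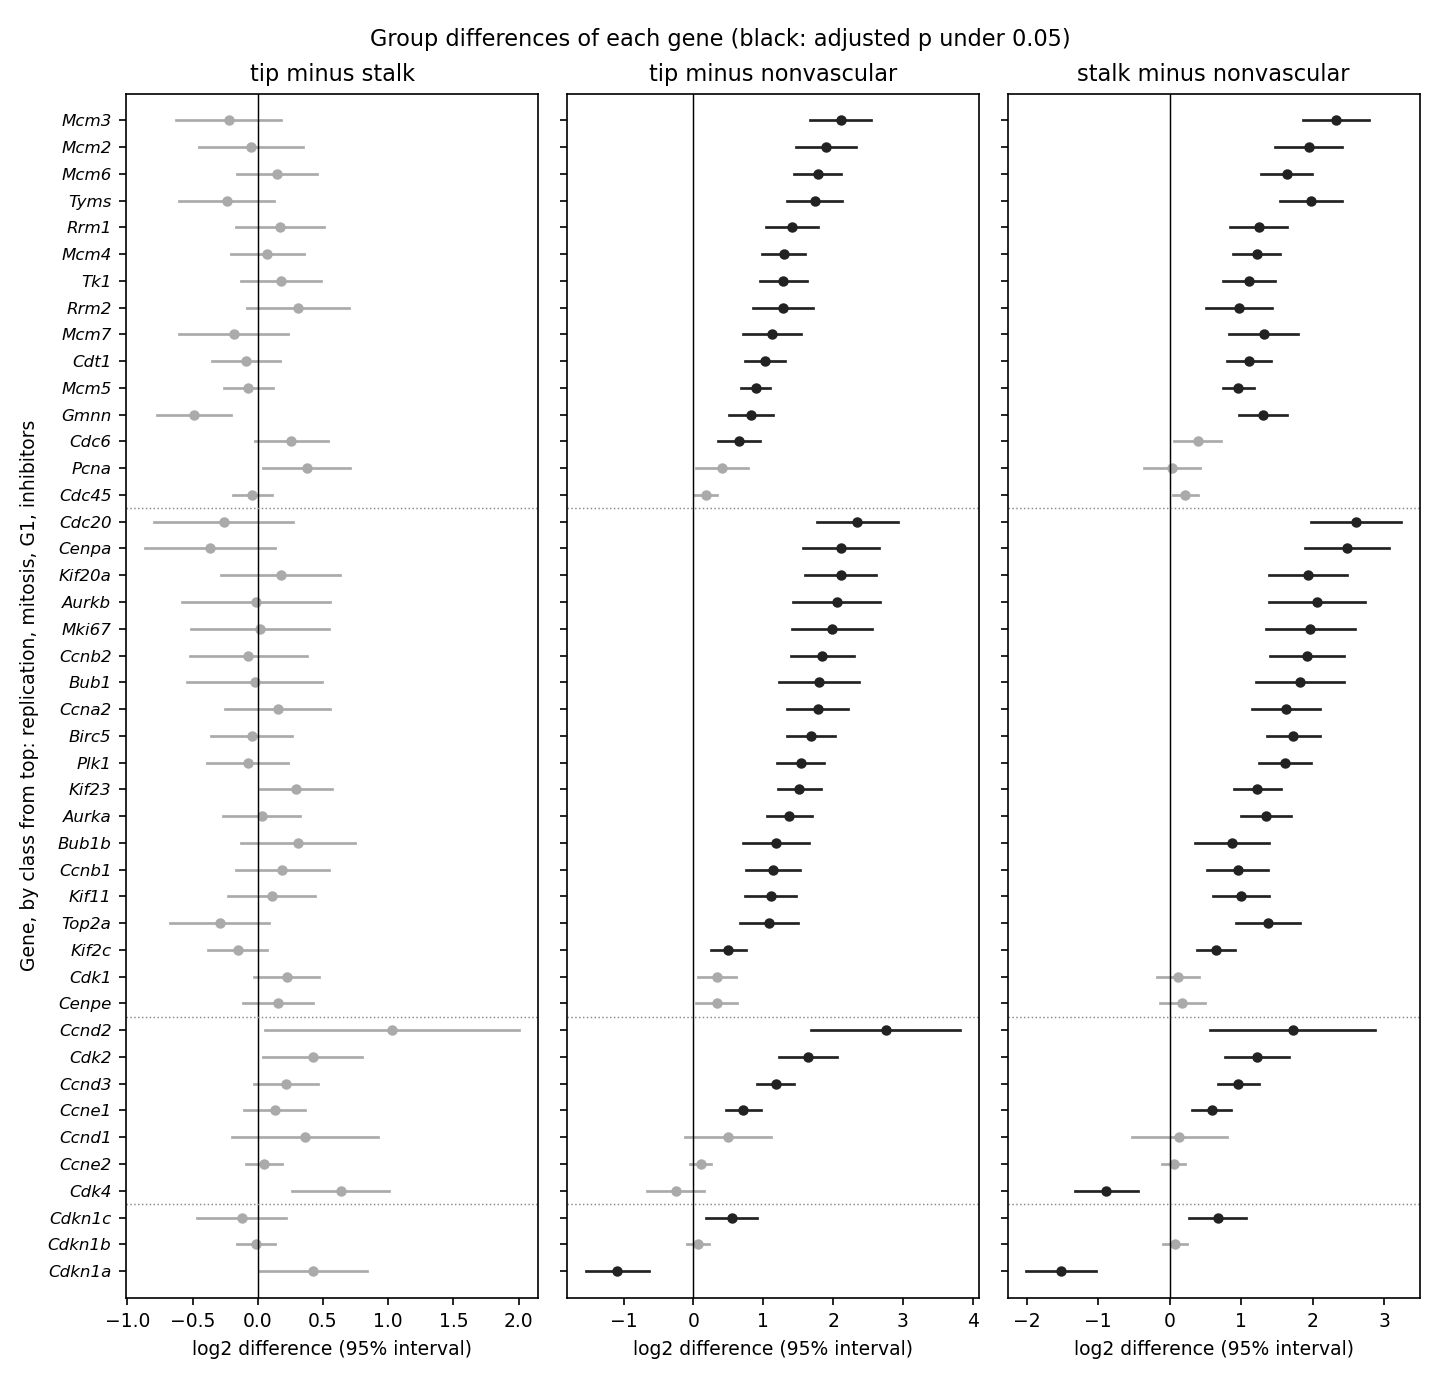
Log2 difference of each gene between groups (x axis), with its 95% interval from limma, for tip minus stalk, tip minus nonvascular and stalk minus nonvascular; the scales of the panels differ. Black marks an adjusted p under 0.05 and grey does not; the tip minus stalk panel is all grey, and Pcna, Cdc45, Cdk1 and Cenpe are the grey replication and mitosis genes in tip minus nonvascular.

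Mitosis genes were called higher in 17 of 19 cases in tip samples and in 17 of 19 in stalk samples, with median differences of 1.54 and 1.61 (2.90-fold and 3.06-fold). The same 2 genes, Cdk1 and Cenpe, were not called in either. The promoters of Cdc20 and Cenpa, which had the largest differences, and of the proliferation marker Mki67 are shown with the CHR motif (TTTGAA or TTCGAA on either strand) in capitals. Cdc20 is at chr4:118437294-118437593 on the minus strand, Cenpa at chr5:30666636-30666935 on the plus strand and Mki67 at chr7:135716330-135716629 on the minus strand (RefSeq, GRCm38.p6).
Cdc20: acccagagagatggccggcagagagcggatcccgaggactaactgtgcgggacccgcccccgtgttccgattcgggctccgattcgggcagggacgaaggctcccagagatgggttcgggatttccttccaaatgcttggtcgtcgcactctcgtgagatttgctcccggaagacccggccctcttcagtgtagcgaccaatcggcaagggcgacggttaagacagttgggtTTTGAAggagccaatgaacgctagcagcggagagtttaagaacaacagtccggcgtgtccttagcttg
Cenpa: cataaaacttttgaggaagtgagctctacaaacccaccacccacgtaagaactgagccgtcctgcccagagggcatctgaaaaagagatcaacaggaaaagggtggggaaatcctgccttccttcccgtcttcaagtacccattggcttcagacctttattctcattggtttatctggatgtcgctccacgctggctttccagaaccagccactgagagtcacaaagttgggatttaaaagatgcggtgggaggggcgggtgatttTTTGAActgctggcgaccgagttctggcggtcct
Mki67: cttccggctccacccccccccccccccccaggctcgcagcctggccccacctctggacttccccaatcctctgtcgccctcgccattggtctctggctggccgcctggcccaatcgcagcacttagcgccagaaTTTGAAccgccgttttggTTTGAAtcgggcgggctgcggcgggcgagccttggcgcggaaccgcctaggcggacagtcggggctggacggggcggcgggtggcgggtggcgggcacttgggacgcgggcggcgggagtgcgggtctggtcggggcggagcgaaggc

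The CHR motif begins at position -18 in Cdc20, at 17 in Cenpa, and at -116 and -98 in Mki67. It is in 13 of 16 mitosis promoters (81.2%), against 3 of 14 replication promoters (21.4%) and 6316 of all 32851 promoters (19.2%). The letters CCAAT, on either strand, are in 14 of 16 mitosis promoters (87.5%), 10 of 14 replication promoters (71.4%) and 37.4% of all promoters. The CCAAT box shares no letters with the E2F or CHR motifs shown. The short CHR motif meets many promoters by its letters alone, which is why the share over all promoters is given. Genes not in the table are Mcm4, Gmnn, Ccna2, Aurkb, Kif20a, Ccnd1, Ccnd2, Ccne2 and Cdkn1c.

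Cdc20 activates the anaphase-promoting complex, which ends metaphase. Its levels ran from 0.08 to 0.47 on tip arrays with a median of 0.20, were 0.89, 0.06, 0.58 and 0.50 on stalk arrays, and were -2.26, -2.81 and -1.24 on nonvascular arrays. It was 2.35 ± 0.27 higher in tip (5.09-fold, interval 1.77 to 2.93, adjusted p = 2.06e-05) and 2.61 ± 0.29 higher in stalk samples (6.11-fold, 1.98 to 3.24, adjusted p = 1.53e-05). Cenpa, the histone H3 variant that marks centromeres, was 2.12 ± 0.25 higher in tip and 2.49 ± 0.27 higher in stalk samples. Cenpa read -0.10 to 0.52 on tip arrays with a median of 0.17, 0.82, 0.18, 0.59 and 0.63 on stalk arrays and -2.06, -2.56 and -1.18 on nonvascular arrays. For both genes the tip and stalk ranges overlapped and lay above all nonvascular arrays.

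Mki67 encodes the Ki-67 antigen, which coats mitotic chromosomes and is the usual histological mark of cycling cells. Its levels were -1.01 to -0.53 on tip arrays (median -0.68), -0.76, -1.09, -0.47 and -0.63 on stalk arrays, and -2.86, -3.44 and -1.83 on nonvascular arrays. Tip and stalk arrays overlapped, and both lay wholly above nonvascular arrays. The difference was 1.99 ± 0.27 in tip (3.96-fold, interval 1.41 to 2.56, adjusted p = 8.06e-05) and 1.97 ± 0.29 in stalk samples (3.92-fold, 1.35 to 2.59, adjusted p = 0.000157). A dimmer probe of Mki67 differed by 0.68 and 0.27. Between tip and stalk, the brighter probe of Mki67 differed by 0.02 (interval -0.51 to 0.54) and the dimmer one by 0.415.

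Birc5, Aurkb, Plk1 and Aurka were each called higher in both vascular groups. Birc5 (survivin), a passenger complex subunit, read 0.35 to 0.57 on tip arrays (median 0.40), 0.56, 0.23, 0.50 and 0.55 on stalk arrays and -1.32, -1.74 and -0.76 on nonvascular arrays. It was 1.68 ± 0.16 higher in tip (adjusted p = 3.62e-06) and 1.73 ± 0.17 higher in stalk samples (adjusted p = 5.45e-06). Aurkb, the kinase of that complex, was 2.05 ± 0.28 and 2.06 ± 0.31 higher. Plk1, a kinase of mitotic entry and spindle formation, read -0.01 to 0.17 on tip arrays (median 0.08), 0.19, 0.09, 0.17 and 0.18 on stalk arrays and -1.72, -1.80 and -0.86 on nonvascular arrays, and was 1.54 ± 0.16 and 1.61 ± 0.17 higher. Aurka, the centrosomal Aurora kinase, read -0.74 to -0.22 on tip arrays (median -0.45), -0.39, -0.81, -0.24 and -0.54 on stalk arrays and -1.94, -2.05 and -1.53 on nonvascular arrays, and was 1.37 ± 0.15 (adjusted p = 1.4e-05) and 1.34 ± 0.16 (adjusted p = 3.12e-05) higher. For these genes no vascular array overlapped a nonvascular one. Incenp, the scaffold of the passenger complex and not one of the 44 genes, was 1.19 ± 0.19 and 1.26 ± 0.20 higher.

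Among mitotic kinesins, Kif23, which acts in cytokinesis, had the smallest p of the mitosis genes in tip samples. It read -1.39 to -1.04 on tip arrays (median -1.20), -1.67, -1.48, -1.55 and -1.28 on stalk arrays and -2.83, -3.00 and -2.33 on nonvascular arrays, a difference of 1.52 ± 0.14 in tip (adjusted p = 3.27e-06) and 1.22 ± 0.15 in stalk samples (adjusted p = 3.92e-05). Kif20a, also needed for cytokinesis, differed by 2.11 and 1.93, Kif11, which pushes spindle poles apart, by 1.11 and 1.00, and Kif2c, which depolymerises microtubules at kinetochores, by 0.50 and 0.65. With the red channel alone both Kif2c calls were lost (adjusted p = 0.412 and 0.106), and with the scanner software's own log ratio (Feature Extraction) its differences were 1.24 and 1.53. The mitotic cyclins Ccna2, Ccnb1 and Ccnb2 were 1.78, 1.14 and 1.85 higher in tip and 1.63, 0.95 and 1.92 higher in stalk samples. The spindle checkpoint kinases Bub1 and Bub1b were 1.80 and 1.18 higher in tip and 1.82 and 0.87 higher in stalk samples, and the stalk call of Bub1b was lost without nonvascular replicate 2 (0.62, adjusted p = 0.0759). Top2a, the topoisomerase that untangles sister chromatids, was 1.09 and 1.38 higher. Dimmer probes of Top2a (0.22 and 0.14) and Kif11 (0.06 and 0.21) differed less, and that of Kif11 was above background on only 3 arrays.

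Cdk1, the kinase that drives entry into mitosis, and Cenpe, a kinetochore motor, were not called in the fit of all arrays. Cdk1 averaged -2.80 ± 0.21 on tip arrays, -3.02 ± 0.14 on stalk arrays and -3.14 ± 0.19 on nonvascular arrays, with differences from nonvascular retina of 0.34 (interval 0.07 to 0.61, adjusted p = 0.0601) and 0.12 (-0.17 to 0.41, adjusted p = 0.575). Cenpe differed by 0.33 (interval 0.04 to 0.63, adjusted p = 0.0886) and 0.18 (-0.14 to 0.50, adjusted p = 0.415). Without tip replicate 1 both were called higher in tip samples, Cdk1 by 0.38 (adjusted p = 0.0367) and Cenpe by 0.42 (adjusted p = 0.00789). Cdk1 was also called there with the mean of all probes (0.25, adjusted p = 0.0183) and with the brightness covariate (0.37, adjusted p = 0.0449).

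**Figure D3:**
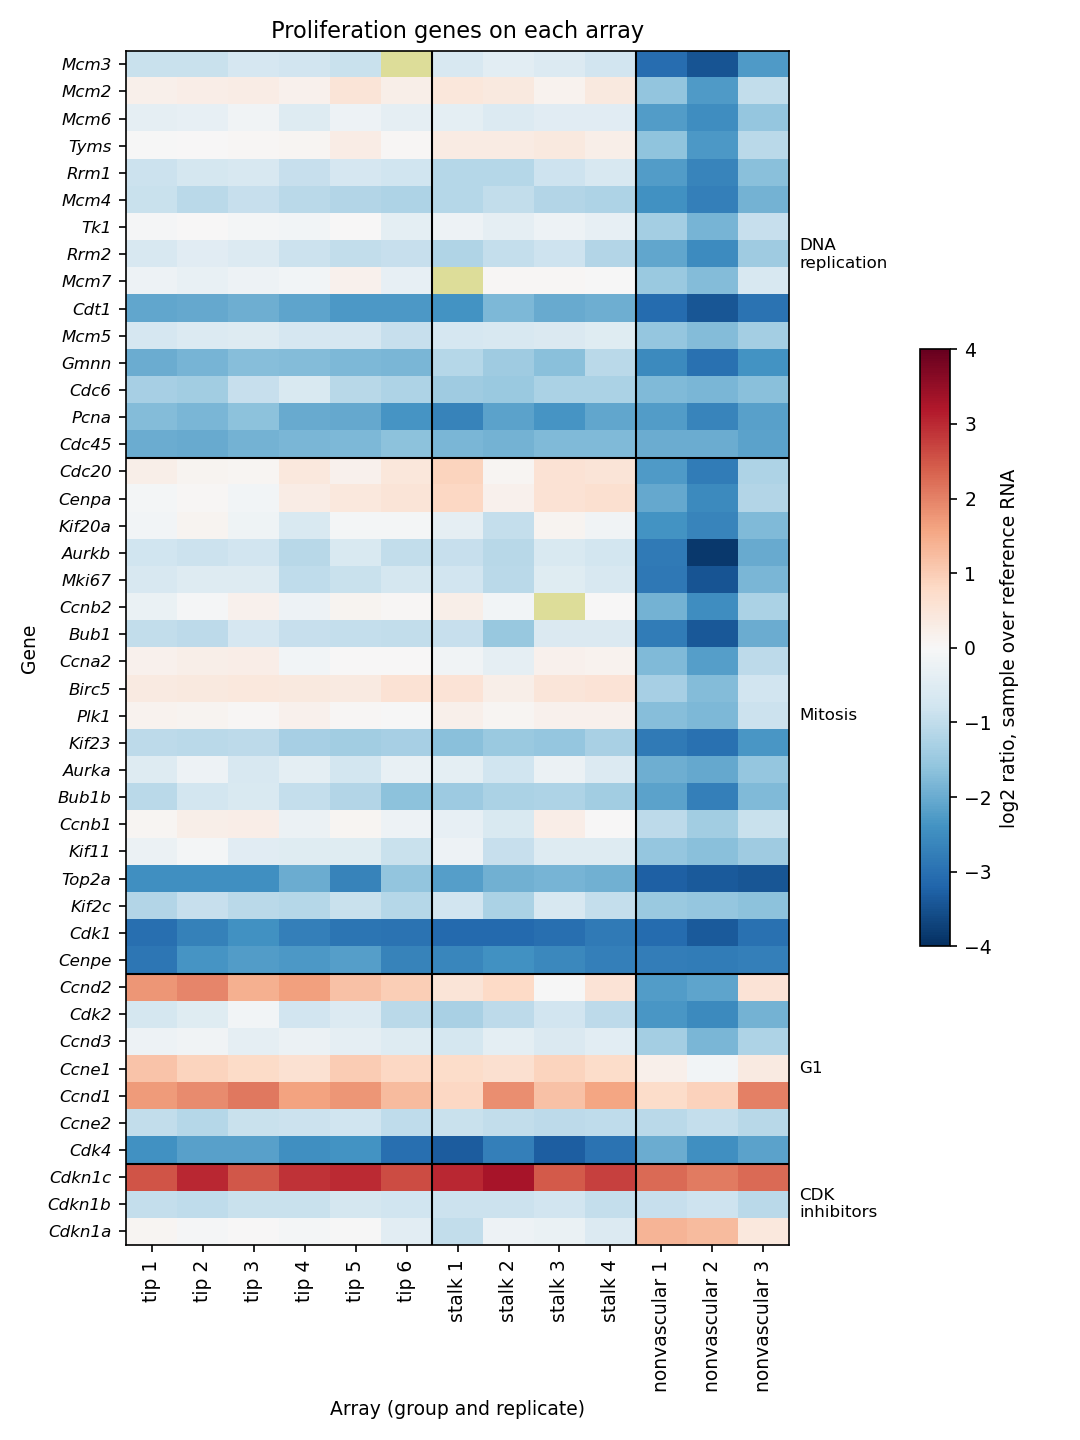
Level of each of the 44 genes (y axis, by class and by tip minus nonvascular difference) on each of the 13 arrays (x axis: tip, stalk, nonvascular). Colour gives the log2 ratio of sample over reference RNA, and yellow-green marks the 3 spots left out as outliers. Most replication and mitosis genes are darker blue on all 3 nonvascular arrays, and Cdkn1a is redder there.

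The G1 genes were mixed. Of 7, 4 were called higher in tip samples and none lower, and 4 were called higher and 1 lower in stalk samples, with median differences of 0.72 and 0.59. Shares over all genes were 11.2% higher and 16.8% lower in tip samples, and 11.3% and 18.6% in stalk samples. Ccnd2, a D-type cyclin, had the largest difference of all 44 members in tip samples. Its levels were 1.78, 1.95, 1.42, 1.64, 1.18 and 0.98 on tip arrays, 0.51, 0.80, -0.01 and 0.53 on stalk arrays, and -2.23, -2.12 and 0.56 on nonvascular arrays. Every tip array was above every stalk array, and nonvascular replicate 3 fell within the stalk range while the other two lay far below it.

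Ccnd2 was 2.75 ± 0.49 higher in tip samples than in nonvascular retina (6.73-fold, interval 1.68 to 3.82, adjusted p = 0.00084). In stalk samples it was 1.72 ± 0.53 higher (3.30-fold, interval 0.57 to 2.88, adjusted p = 0.0265), a call lost under 9 of 24 alternative settings (adjusted p up to 0.139). Without nonvascular replicate 3 the differences were 3.66 ± 0.25 in tip (adjusted p = 4.76e-07) and 2.63 ± 0.26 in stalk samples (adjusted p = 1.06e-05). Nonvascular replicate 3 also read highest for the astrocyte markers, whose median was 0.14, 0.18 and 1.69 on nonvascular replicates 1, 2 and 3; the part of this in the Ccnd2 values was not tested.

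Of the other D-type cyclins, Ccnd3 read -0.52 to -0.14 on tip arrays (median -0.30), -0.69, -0.40, -0.59 and -0.42 on stalk arrays and -1.37, -1.84 and -1.24 on nonvascular arrays, and was 1.18 ± 0.12 higher in tip (adjusted p = 9.91e-06) and 0.96 ± 0.13 higher in stalk samples (adjusted p = 0.000102). Ccnd1 read 1.27 to 2.11 on tip arrays (median 1.74), 0.84, 1.86, 1.16 and 1.59 on stalk arrays and 0.74, 0.91 and 2.02 on nonvascular arrays, and its groups overlapped. It was above the cell line pool on every array, and it was not called in tip (0.50, interval -0.12 to 1.12, adjusted p = 0.234) or in stalk samples (0.14, interval -0.53 to 0.80, adjusted p = 0.797). Without nonvascular replicate 3 it was called higher in tip samples, by 0.90 (adjusted p = 0.0175).

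In stalk samples the kinases of G1 moved in opposite directions. Cdk2, the partner of E-type cyclins, read -1.08 to -0.10 on tip arrays (median -0.63), -1.29, -1.04, -0.78 and -1.04 on stalk arrays and -2.34, -2.55 and -1.89 on nonvascular arrays, and was 1.65 ± 0.19 and 1.22 ± 0.21 higher (adjusted p = 2.51e-05 and 0.000519). Its dimmer probe differed by 0.18 and 0.17, and with the Feature Extraction log ratio the differences of the brighter one were 2.40 and 1.94. Cdk4, the partner of D-type cyclins, read -2.41, -2.17, -2.16, -2.44, -2.40 and -3.03 on tip arrays, -3.32, -2.72, -3.28 and -2.96 on stalk arrays and -1.97, -2.44 and -2.14 on nonvascular arrays. It was 0.89 ± 0.20 lower in stalk samples (log2 difference -0.89, 1.85-fold lower, adjusted p = 0.00459), and its difference in tip samples was -0.25 (interval -0.66 to 0.16, adjusted p = 0.385). Among tip arrays only array 6 fell within the stalk range, and no stalk array reached a nonvascular one. With array brightness, which was lowest on stalk arrays and tip arrays 5 and 6, as a covariate the Cdk4 call was lost (-0.53, adjusted p = 0.0997).

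Of the E-type cyclins, Ccne1 was 0.72 ± 0.12 higher in tip (adjusted p = 0.000439) and 0.59 ± 0.13 higher in stalk samples (adjusted p = 0.00322). It read 0.62 to 1.14 on tip arrays (median 0.85), 0.72, 0.63, 0.89 and 0.73 on stalk arrays and 0.21, -0.10 and 0.36 on nonvascular arrays. A dimmer probe of Ccne1 differed by 0.29 in tip and -0.04 in stalk samples, and with the mean of both probes the stalk call was lost (0.27, adjusted p = 0.0884). Median centring ended both Ccne1 calls (0.52, adjusted p = 0.108, and 0.40, adjusted p = 0.214). Ccne2 was not called, at 0.10 (interval -0.04 to 0.25, adjusted p = 0.312) and 0.06 (-0.10 to 0.22, adjusted p = 0.623).

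**Figure D4:**
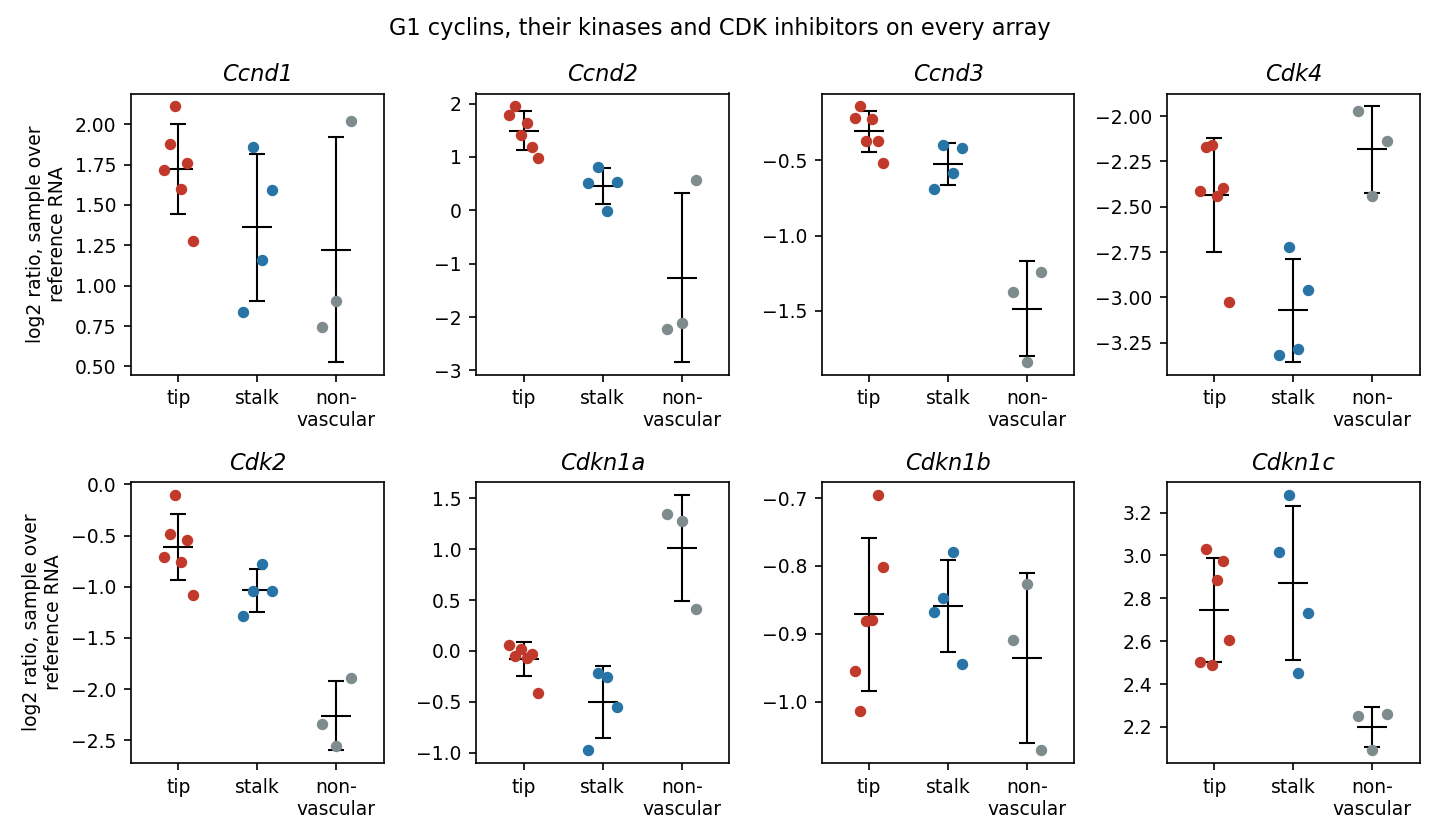
Levels of 5 G1 cyclins and kinases and of the 3 CDK inhibitors on every array (y axis, log2 ratio of sample over reference RNA; scales differ between panels). Points are arrays of tip, stalk and nonvascular retina, and bars give the mean and SD. Ccnd2 separates tip from stalk arrays, and Cdkn1a is highest on nonvascular arrays. The mean of Cdk4 is lowest in stalk samples, with tip array 6 inside the stalk range.

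The 3 CDK inhibitors of the list bind cyclin and kinase complexes and hold cells out of the cycle. Cdkn1a (p21), a target of p53, was lower in both vascular groups. Its levels were 0.06, -0.05, 0.02, -0.07, -0.03 and -0.41 on tip arrays, -0.98, -0.22, -0.26 and -0.55 on stalk arrays, and 1.35, 1.28 and 0.41 on nonvascular arrays. No vascular array reached a nonvascular one. The log2 difference was -1.09 ± 0.21 in tip (2.13-fold lower, interval -1.54 to -0.63, adjusted p = 0.00144) and -1.51 ± 0.23 in stalk samples (2.85-fold lower, -2.00 to -1.02, adjusted p = 0.00019).

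Cdkn1c (p57) went the other way and stood well above the cell line pool everywhere. It read 2.50, 3.03, 2.49, 2.88, 2.97 and 2.60 on tip arrays, 3.02, 3.28, 2.45 and 2.73 on stalk arrays, and 2.25, 2.09 and 2.26 on nonvascular arrays. It was 0.55 ± 0.17 higher in tip (adjusted p = 0.029) and 0.67 ± 0.18 higher in stalk samples (adjusted p = 0.0139), and these calls were lost under 8 and 3 of 24 alternative settings, with adjusted p up to 0.115 and 0.0767. Cdkn1b (p27) was not called and read -1.01 to -0.70 on tip arrays (median -0.88), -0.87, -0.85, -0.78 and -0.94 on stalk arrays and -0.91, -0.83 and -1.07 on nonvascular arrays. It averaged -0.87 ± 0.11 on tip, -0.86 ± 0.07 on stalk and -0.94 ± 0.13 on nonvascular arrays. Its differences had intervals of -0.10 to 0.23 in tip and -0.10 to 0.25 in stalk samples relative to nonvascular retina, and -0.16 to 0.14 in tip minus stalk. Both Cdkn1b probes were dim (mean log2 intensity 6.56 and 6.14), and the dimmer one was above background on 7 arrays. With the Feature Extraction log ratio the spread was wider, at 0.27 ± 0.23 in tip minus stalk and -0.19 ± 0.27 in stalk minus nonvascular retina. Equal levels were therefore not shown.

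Between tip and stalk samples limma called 0 of the 44 members in either direction, where 2.77% of all genes were called. At an unadjusted p under 0.05 there were 7 of the 44 members, a smaller share than the 5727 of 31734 genes. The median difference was -0.04 for replication genes and 0.02 for mitosis genes, and 95% intervals of single genes ran from -0.77 to 0.71 for replication and from -0.87 to 0.74 for mitosis. Differences of up to these bounds between tip and stalk are therefore compatible with the arrays, and the groups were not shown to be alike. The 7 G1 genes all had positive differences, with a median of 0.36, against 0.0027 over all genes.

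The 7 genes with an unadjusted p under 0.05 were Gmnn, lower in tip, and Cdk4, Ccnd2, Cdk2, Pcna, Kif23 and Cdkn1a, higher in tip. Gmnn differed by -0.49 ± 0.13 (interval -0.77 to -0.20, adjusted p = 0.0703), with tip arrays at -1.97 to -1.69 (median -1.82), stalk arrays at -1.13, -1.43, -1.68 and -1.07, and no overlap. The groups nearly met, at -1.689 on tip array 3 and -1.682 on stalk array 3. Gmnn was called under 4 of 24 alternatives, among them without stalk replicate 3 and without nonvascular replicate 2 (adjusted p 0.0176 to 0.24 over all 24). Cdk4 differed by 0.64 ± 0.17 (interval 0.26 to 1.01, adjusted p = 0.0709) and was called without tip replicate 6, the lowest tip array (0.75, adjusted p = 0.0104; 0.0104 to 0.508 over all 24 alternatives).

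Ccnd2 differed by 1.03 ± 0.45 between tip and stalk (2.04-fold, interval 0.05 to 2.01, adjusted p = 0.251). Its error comes from a spread shared by the 3 groups, which the nonvascular arrays widen. With only the tip and stalk arrays fitted the same difference had a standard error of 0.20 and was called (adjusted p = 0.0279), as it was without nonvascular replicate 3 (adjusted p = 0.0171; 0.0171 to 0.742 over all 24 alternatives). Cdk2 differed by 0.42 ± 0.18 (adjusted p = 0.23), Pcna by 0.37 ± 0.15 (adjusted p = 0.224), Kif23 by 0.29 ± 0.13 (adjusted p = 0.248) and Cdkn1a by 0.42 ± 0.19 (adjusted p = 0.265). Dimmer probes differed by only 0.013 for Cdk2, by 0.33 for Kif23, and by 1.22 and 1.05 for Ccnd2.

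Other genes of the same pathways, listed by textbook role, were read for comparison. Of 42 other replication genes tested, 19 were called higher and 3 lower in tip samples, and 19 and 3 in stalk samples. Over all genes, 11.2% were called higher and 16.8% lower in tip samples, and 11.3% and 18.6% in stalk samples. Chaf1b, a chromatin assembly factor subunit that places histones on new DNA, was 1.85 ± 0.20 and 2.11 ± 0.21 higher. Orc4, Gins4 and Cdc7, of the origin complex, the helicase complex and the kinase that fires origins, were the 3 lower genes in both, at -0.40, -0.31 and -0.51 in tip and -0.35, -0.29 and -0.94 in stalk samples. Of 49 other mitosis genes, 35 were called higher in tip and 30 in stalk samples, and none lower. Ndc80, Mad2l1 and Spc25, of the kinetochore and spindle checkpoint, were among those not called in either. Prc1, which bundles the central spindle, was 1.64 ± 0.18 and Cdca8, a passenger complex subunit, 1.50 ± 0.17 higher in tip samples. The median difference was 0.35 and 0.31 for the replication list and 0.78 and 0.82 for the mitosis list, in tip and stalk samples.

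Of 16 genes of the E2F, retinoblastoma and MuvB group, 7 were called higher and 2 lower in tip samples, and 6 and 2 in stalk samples. For this list and the next, the shares over all genes were 11.2% higher and 16.8% lower in tip samples. In stalk samples they were 11.3% and 18.6%. A count near these shares is not particular to its list. The repressors E2f7 and E2f8, themselves switched on in S phase, were 1.03 and 1.1 higher in tip and 1.33 and 0.90 higher in stalk samples, and Rb1, the retinoblastoma gene, had log2 differences of -0.56 in tip and -0.45 in stalk samples, both called lower. Of 20 further G1 genes and brakes on the cycle, 6 were called higher and 4 lower in tip samples, and 4 and 4 in stalk samples. Mycn, a driver of progenitor growth, was the most reduced, at -2.03 ± 0.16 and -2.28 ± 0.18. Gadd45b, a stress-induced growth arrest gene, was 2.53 ± 0.20 and 2.89 ± 0.22 higher.

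The only gene of these 4 pathway lists called between tip and stalk was Cdkn2b (p15), an inhibitor of Cdk4 and Cdk6. It read -1.09, -0.91, -1.13, -1.19, -0.87 and -1.45 on tip arrays, -2.50, -1.82, -2.13 and -2.45 on stalk arrays and -2.90, -3.28 and -2.90 on nonvascular arrays. The 3 groups did not overlap. It was 1.12 ± 0.15 higher in tip than in stalk samples (2.17-fold, adjusted p = 0.00158), and it was called under all 24 alternatives (differences of 1.01 to 1.43, adjusted p 0.000925 to 0.0261).

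Markers of vessel cells were mostly higher in the vascular groups than in nonvascular retina, and ganglion cell markers were mostly lower. Of 10 endothelial markers, 8 were called higher in each vascular group, with list medians of 2.51 to 3.00 on tip arrays, 2.97 to 3.06 on stalk arrays and 0.17 to 0.35 on nonvascular arrays; Tek was called in neither, and Pecam1 averaged 0.11 on tip, -0.04 on stalk and -0.16 on nonvascular arrays. All 8 pericyte markers were called higher in each (list medians 1.57 to 2.29 on tip, 2.37 to 2.92 on stalk and 0.09 to 0.29 on nonvascular arrays), and 6 of 8 were lower in tip than in stalk samples. Of 8 astrocyte markers 4 were called higher in each, and of 9 ganglion cell markers 8 and 7 were called lower. Over all genes, 11.2% were called higher and 16.8% lower in tip samples, and 11.3% and 18.6% in stalk samples. Between tip and stalk, 2.77% were called in either direction.

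Markers of retinal progenitors, the dividing cells of the neural retina, overlapped between groups, with list medians of 0.56 to 1.05 on tip, 0.65 to 0.91 on stalk and 0.44 to 1.39 on nonvascular arrays. Of 11 tested, 1 was called higher and 3 lower in tip samples, and 2 and 2 in stalk samples. For this and the lists below, the shares over all genes were 11.2% higher and 16.8% lower in tip samples. In stalk samples they were 11.3% and 18.6%. On nonvascular replicates 1, 2 and 3 the progenitor list medians were 0.99, 0.44 and 1.39, in the same order as the members' replication and mitosis medians. The 49 other mitosis genes kept this order (-1.92, -2.10 and -1.49). The 42 other replication genes did not (-0.93, -1.31 and -0.99). An order over 3 arrays can easily arise by chance. Amacrine markers were called higher for 1 and lower for 3 of 8 in each vascular group, photoreceptor markers lower for 5 and 4 of 8, microglia markers lower for 5 and 4 of 8, and erythroid markers higher for 2 and 1 of 4. The part of any of these cell types in the differences of the division genes was not tested.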

How the data were processed

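RNA from 6 tip, 4 stalk and 3 nonvascular retina samples was measured on 2-colour arrays. Per the file headers, the authors took from each scan the mean intensity of every spot and the median intensity of its local background. These intensities themselves were not normalized. The software was Agilent Feature Extraction, version 8.5.1.1, as the submitters' processing notes also say. Per the file headers, that software also gave a background-subtracted, dye-normalized log10 ratio of red over green. The value table deposited by the authors holds linear ratios, and 99.94% or more of an array's probes matched the log10 ratio within 0.001.

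Log2 ratios were computed here from the mean intensities with normexp (offset 50) and loess in limma 3.58.1 (R 4.3.3; package data.table, version 1.17.8), with controls and outlier spots left out. Of 41174 probes, 22072 were named through their own accession, 142 through another accession and 1570 through the description, using RefSeq tables; 17390 stayed unnamed. A gene's brightest probe was used where it was well above background in red on at least 3 arrays. A 3-group linear model was fitted to 31734 genes, with Benjamini-Hochberg adjustment over all of them. No replicate was merged. The alternatives were 24 in number. The steps were tested on simulated data.

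The 44 members, the other lists and the naming rule were chosen with earlier results of these data known. Every member may be named; per-array values are given for the 4 members of each class with the smallest p in tip or in stalk minus nonvascular retina, for Mki67, Pcna, the D-type cyclins and the inhibitors, and of each other list the 3 called genes with the smallest p may be named. Cdk4, Gmnn, Kif23, Cdkn1a, Pcna, Cdk2 and Ccnd2 in tip minus stalk, the other probes, and the lower genes Orc4, Gins4, Cdc7, Rb1, E2f7 in tip samples, Dut, Dck, Incenp, Ndc80, Mad2l1, Spc25, Tek and Pecam1 were named after their values were seen. The number of arrays limits the precision.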

Additional observations from a re-analysis of the deposited data

Results flagged for a closer look

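Within groups of 4 or 6 arrays, 86 sets of readings (1 gene in 1 group) were examined, and in 7 of them 1 reading lay far from the rest by Dixon's 95% value; chance alone marks about 1 in 20 groups. Tip array 6 accounts for 4 of them: Tk1 at -0.38 (other tip arrays -0.10 to 0.03), Birc5 at 0.57 (others 0.35 to 0.41), Cdk4 at -3.03 (others -2.44 to -2.16) and Cdkn1a at -0.41 (others -0.07 to 0.06). Tip array 5 read 0.31 for Tyms, where the others read -0.02 to 0.08. Tip array 3 read -0.67 for Bub1, where the others read -1.05 to -0.93. Stalk array 1 read -2.22 for Top2a, where the others read -1.92 to -1.85. The Cdk4 reading bears on a call: without tip replicate 6 Cdk4 was called higher in tip than in stalk samples, at 0.75 (adjusted p = 0.0104), and all genes called in that comparison numbered 1581, against 878 with it. Tip array 6 was also the dimmest tip array, with a median red signal of 105 intensity units after background subtraction.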

How the results depend on the processing

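Over the 24 alternatives (other background correction, normalization, probe choice, filter, fitted arrays, brightness covariate, replicate block and leaving out each array), the members called higher numbered 33 to 37 in tip minus nonvascular and 30 to 35 in stalk minus nonvascular retina, with 13 to 14 and 11 to 14 replication genes and 16 to 19 and 16 to 17 mitosis genes. Single-gene results were followed for 100 differences, those of all 44 members from nonvascular retina and some in tip minus stalk. The latter were Mki67, Pcna, the D-type cyclins, the inhibitors and members with an unadjusted p under 0.05. Other tip minus stalk differences, some near 0 such as that of Aurkb (-0.01), were not followed. Of the results followed, 2317 kept direction and side of the threshold, 30 lost the call, 20 gained it and 31 turned sign. Tip minus stalk gave 1 higher member (Ccnd2) and 1 lower (Gmnn) with only those 2 groups fitted, 1 lower (Gmnn) with the red channel alone, and 0 to 1 in either direction when 1 array was left out. With the brightness covariate 1 member in place of 2 was lower in stalk samples. Cdc6 and Kif2c lost the call in tip samples with the red channel alone (0.40 and 0.32). Kif2c also lost its stalk call there (0.66). Median centring ended the stalk calls of Rrm2, Bub1b, Ccne1 and Cdkn1c (0.80, 0.77, 0.40 and 0.55). It also ended the tip calls of Ccne1 (0.52) and Cdkn1c (0.43). Leaving out nonvascular replicate 2 ended the stalk calls of Bub1b, Ccnd2 and Cdkn1c (0.62, 1.29 and 0.62) and the tip call of Cdkn1c (0.49).

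Deviations of arrays with the same replicate number correlated at -0.14 to 0.08 over genes. Arrays with different numbers were not compared in this way, so these values cannot decide whether the numbers pair the arrays. With the replicate block, tip minus stalk gave 1 higher member, Cdk2 (0.52, adjusted p = 0.0484; 0.0484 to 0.759 over all 24), and 655 called genes in place of 878.

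Sign changes were all in differences not called. In tip minus stalk, Mki67 read -0.16 with median centring, -0.047 with the brightness covariate and -0.16 to 0.22 over all alternatives; Cdkn1b read 0.27 with the Feature Extraction log ratio and with the deposited ratios, 0.0074 with the red channel alone and 0.068 with the covariate; Cdkn1c reached 0.013 with stalk replicate 2 left out. In tip minus nonvascular, Cdkn1b read -0.063 with the red channel alone. In stalk minus nonvascular, median centring gave -0.071 for Pcna and -0.045 for Cdk1, the red channel alone gave -0.009 for Cenpe, -0.13 for Ccne2 and -0.071 for Cdkn1b, the Feature Extraction log ratio and the deposited ratios gave -0.23 for Ccne2 and -0.19 for Cdkn1b, and the covariate gave -0.031 for Cdkn1b. Leaving out 1 array at a time, the ranges were -0.10 to 0.10 for Mki67 in tip minus stalk, -0.047 to 0.017 for Cdkn1b in tip minus stalk, -0.26 to 0.013 for Cdkn1c in tip minus stalk, -0.0037 to 0.12 for Cdkn1b in tip minus nonvascular, -0.11 to 0.16 for Pcna in stalk minus nonvascular, -0.10 to 0.54 for Ccnd1 in stalk minus nonvascular. The cause of these changes was not tested.

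Over all genes, tip minus stalk calls numbered 878 (462 higher, 416 lower), but 248 (48 and 200) with median centring, 668 (203 and 465) with the red channel alone, 221 (76 and 145) with the covariate, and 441 to 1581 when 1 array was left out. In tip minus nonvascular, calls split 3546 to 5333, and 2172 to 5553 with median centring. In stalk minus nonvascular they split 3586 to 5887, 4442 to 5097 with the Feature Extraction log ratio and 2501 to 4243 with the covariate.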
